A study of Danio rerio with 3 samples.

Results

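Müller glia span the zebrafish retina from its inner to its outer limit, take up transmitter, potassium and water around neurons, and recycle retinoid for cones. In zebrafish they can also re-enter the cell cycle after injury and make new neurons, and this ability is lost in mammals. Here they were picked out of single-cell RNA sequencing of whole adult retina by their own transcripts. A barcode counted as a Müller glial cell where it had at least 200 genes, at least 3 UMIs of rlbp1a, at least 5 UMIs over ptgdsb.1, ptgdsb.2, cahz and gfap together, and more UMIs of those 4 genes than of the pigment genes rpe65a, dct, pmela, pmelb and tyrp1b. UMIs are sequenced molecules counted once each. This left 617 members among 29461 barcodes with 200 genes, 256 of 15547 in P23H fish and 361 of 13914 in WT fish. A share of 1.65% of barcodes (exact binomial 95% interval 1.45 to 1.86) was kept in P23H and 2.59% (2.34 to 2.87) in WT. Barcodes are not replicates, so these shares describe 2 libraries and not the fish lines.

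The P23H library came from the transgenic line uth4Tg, a model of retinitis pigmentosa in which a mutant rhodopsin leads to continuous loss and renewal of rods, and the WT library came from the AB strain (ZIRC_ZL1). Both lines were sampled as whole retina with patches of adherent pigment epithelium. All fish were adults of 4 to 8 months by the labels, kept under 14 h of light and 10 h of dark and collected in the morning, and each library pooled 3 fish of 1 line. Both libraries were made with the V3 chemistry, and another library of P23H fish was made with the older V2 chemistry. With 1 library for each line and chemistry there is no replicate, so no test between the lines was made, and a difference between lines cannot be told apart from one between strains, pools of fish or libraries.

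Members held a median of 3374 UMIs and 1472 genes in P23H V3 (1264239 UMIs in all) and 4568 UMIs and 1698 genes in WT V3 (2070456 UMIs in all), against medians of 1241 and 1198 UMIs over all barcodes. Mitochondrial transcripts took 0.650% and 0.840% of their UMIs. The V3 libraries shared 64 barcode sequences, of which 1 was a member in P23H V3, 2 were members in WT V3, and 0 in both. Doublets were not removed. The 8% of members with most UMIs were the upper end of a range without a clear gap. The other members reached 8768 UMIs in P23H V3 and 10978 in WT V3. Summed levels in the 8% with most UMIs differed from those of the other members. In P23H V3 these 20 barcodes held 9466 to 65749 UMIs each and 38.4% of the members' UMIs, and in WT V3 29 barcodes held 11018 to 78427 UMIs each and 30.7%. Their level of glula, the glutamine synthetase of retinal glia, was 3101 CPM in P23H and 4211 CPM in WT, where CPM is UMIs scaled to a total of 1000000, and the other 92% stood at 14931 and 14103 CPM. The 208 markers of other cell types made up 4.86% (P23H) and 3.34% (WT) of what they held, and 2.01% and 2.67% of what the other members held. For part of the results below, values or counts without these barcodes are therefore given.

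**Figure D1:**
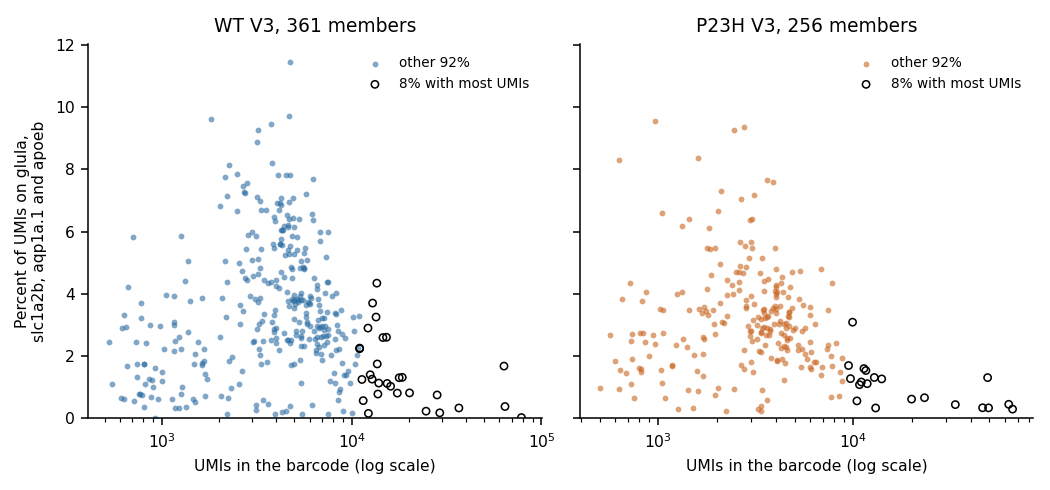
Each point is a Müller glial barcode, placed by its UMIs (log axis) and the percent of them on glula, slc1a2b, aqp1a.1 and apoeb, 4 glial genes that the rule did not use. The median was 3.22% in WT V3 and 2.99% in P23H V3 among the 92% with fewer UMIs (filled), and 1.25% and 1.102% among the 8% with most (open).

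The selecting genes themselves are a description, since they chose the members. Rlbp1a, which carries 11-cis retinoid in Müller glia, ran from 3 to 79 UMIs per member in P23H V3 with a median of 10, and from 3 to 167 with a median of 32 in WT V3. Summed, it stood at 2401 CPM (2316 to 2488) in P23H V3, 6115 CPM (6009 to 6223) in WT V3 and 3831 CPM in P23H V2. The ranges in brackets after a level are exact 95% Poisson intervals, which cover counting error only. The paralogues ptgdsb.1 and ptgdsb.2, which encode prostaglandin D synthase-like proteins, took opposite places. Ptgdsb.1 was at 7809 CPM in P23H V3 and 3970.1 in WT V3, and ptgdsb.2 was at 7677 and 11358. The sum of the 4 selecting markers was 20417 and 21354 CPM. Cahz, a carbonic anhydrase, was at 4590.1 and 5354 CPM, and gfap, the glial intermediate filament, at 342 and 672 CPM.

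The rule cut through a graded population. In P23H V3, 20 members had exactly 3 rlbp1a UMIs and 21 barcodes met every other limit with 2, and in WT V3 these were 17 and 22. The members just inside had a median of 1229.5 UMIs in P23H V3 and 863 in WT V3, and the barcodes just outside had 1148 and 1072. A further 266 barcodes of P23H V3 and 128 of WT V3 met the other limits with no rlbp1a UMI at all. At the limit on the 4 glial markers, 7 members had 5 UMIs in P23H V3 and 11 barcodes had 4, and in WT V3 these were 9 and 9. The pigment genes turned away 0 barcodes in P23H V3 and 3 in WT V3.

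Several genes outside the rule matched the label, and others set the members apart less clearly. Glula was at 10386 CPM in P23H V3 members and 11065 in WT V3 members, against 823 and 478 CPM in all other barcodes. Slc1a2b, a glutamate transporter, was at 2194 and 2021 CPM against 35.7 and 25.3, and the water channel aqp1a.1 was at 1617 and 1466 against 18.4 and 15.5. Apoeb, an apolipoprotein E shared with microglia, reached 7729.6 and 13718 CPM against 303 and 260.3. The stem cell factor sox2 was at 201 and 239 CPM, 4.52 times the other barcodes in the library with the lower ratio. Fabp7a, a fatty acid binding protein, was less set apart in P23H V3, at 1497 and 3454 CPM against 916 and 237. In contrast, glulb stood at only 11.1 and 8.69 CPM and her6 at 24.5 and 21.3 CPM, and sox9a was near the floor with 5 and 11 UMIs. These ratios to other barcodes describe the members, since the cells were chosen by transcripts that run with them.

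Genes with a symbol, outside the rule, were ordered by the lower of their ratios to other barcodes in the V3 libraries, leaving out clone and locus numbers. The order began with hyal6, a hyaluronidase (249 times the other barcodes in P23H V3 and 219 times in WT V3), the growth factor fgf24 (219 and 215), atp1b4, a relative of the sodium pump beta subunits (174 and 225), and cyp26a1, which degrades retinoic acid (217 and 169.7). The chemokine cxcl12b, the astroglial membrane protein mlc1, the actin-binding xirp1, the BMP antagonist chrdl2, the microfibril protein mfap5, the ammonium transporter rhbg, the water channel aqp4, the retinoic acid carrier crabp2b, the glycogen phosphorylase pygl, cyp26c1 and the carbonic anhydrase ca14 followed, at 100 to 265 times the other barcodes. At least 100 UMIs in the members of each library and 10 times the level of the other barcodes in both were reached by 112 genes, of which 14 were rule genes, clones or loci and the other 98 are described next.

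Among those 98 glial genes, 10 were at least 2-fold higher in P23H V3 members, 7 were at least 2-fold lower, and 58 lay within 1.5-fold, with a median log2 ratio of -0.16. The 17 genes are named here after their values were seen. Dio2, the deiodinase that makes active thyroid hormone, was the furthest apart of them, at 1024 CPM in P23H V3 and 148 in WT V3, a log2 ratio of 2.79 (2.61 to 2.98), where ranges after a ratio are exact 95% intervals of counting error. It was at 579 CPM in P23H V2 members. The others that were higher were the metallothionein mt2 (log2 ratio 2.01), cyp26c1 (1.83), atp1b4 (1.43), ndufa4l2 (1.31), aqp4 (1.19), the sialyltransferase st8sia6 (1.15), the syntrophin sntb1 (1.13), the calcium-binding s100v2 (1.12) and id1, an inhibitor of bHLH factors (1.05). The lower ones were chrdl2 (-1.40), the vimentin relative viml (-1.33), xirp1 (-1.29), igfbp1a, which binds insulin-like growth factor (-1.29), the cytokine signalling inhibitor socs3b (-1.13), boka of the Bcl-2 family (-1.09) and cebpd (-1.04). In other barcodes dio2 (log2 1.18), mt2 (1.71), atp1b4 (1.80), ndufa4l2 (1.13) and aqp4 (1.08) were also past 2-fold higher in P23H V3. Chrdl2 (-2.27) and viml (-3.13) were also past 2-fold lower there, and the rest of the 17 were inside 2-fold there. Levels there were low, since members held the genes higher in both at 16.1 (ndufa4l2, WT V3) to 225 (atp1b4, WT V3) times the other barcodes. The other barcodes include the 266 of P23H V3 and 128 of WT V3 that met the other limits with no rlbp1a UMI. The part of such barcodes or of free glial RNA in these ratios was not tested. Without the 8% of members with most UMIs, cebpd was at -0.81 and boka at -0.98, both inside 2-fold, and dio2 was at 3.12. Within the V3 pair 7 of the 17 fell inside 2-fold under at least 1 alternative, which were mt2, s100v2, id1, igfbp1a, socs3b, boka and cebpd. With P23H V2 in place of P23H V3 7 lay inside 2-fold or turned, with chrdl2 at -0.57, viml at -0.25, aqp4 at 0.02, sntb1 at 0.68, cyp26c1 at 0.92, s100v2 at 0.99 and boka at 0.29. Of the rows summed for st8sia6, 1 was higher in P23H V3 and another was lower, as given below.

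**Figure D2:**
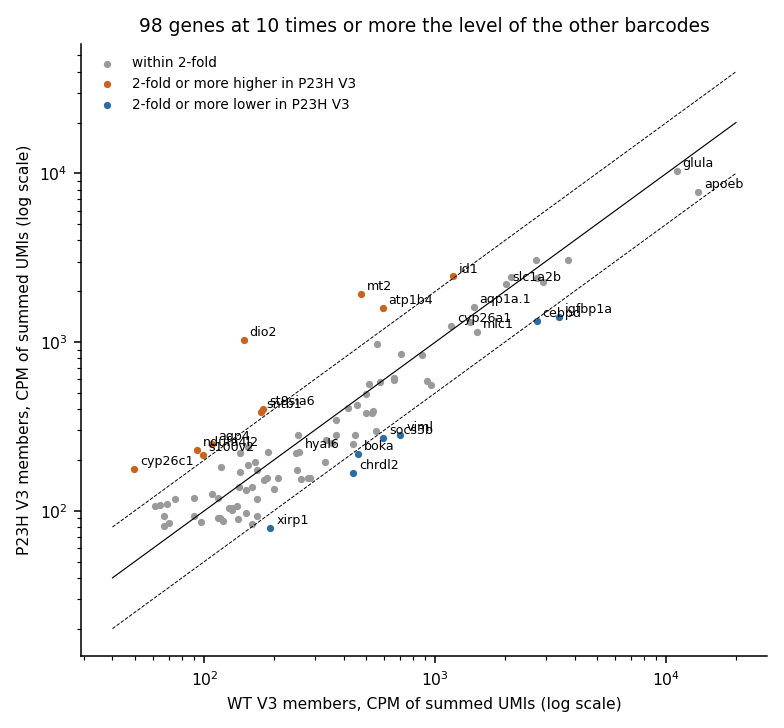
Summed CPM of 98 glial genes in WT V3 members (x) and P23H V3 members (y), both on log axes, with lines at equality (solid) and 2-fold (dashed). Dio2 at 1024 against 148 CPM lies furthest above the line, and glula lies close to it.

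Several retinoid genes stood at different levels in Müller glia and in pigment epithelium of the same library. Pigment-side barcodes, with at least 5 UMIs of the pigment genes and more of them than of the glial markers, numbered 147 in P23H V3 and 1274 in WT V3. Rlbp1b, the second gene for the retinoid carrier, was at 5603 and 20287 CPM there, against 201 and 241 CPM in Müller glia, while rlbp1a, whose contrast follows from the rule, was at 14.2 and 38.4 CPM on the pigment side. The opsin relative rgrb was at 12439 and 23075 CPM on the pigment side and 108 and 417 in Müller glia, and rdh5, the retinol dehydrogenase of pigment epithelium, was at 2332 and 2209 against 41.1 and 27.5. Cyp26a1 ran the other way, at 14.2 and 3.13 CPM on the pigment side and 1246 and 1173 in Müller glia, as did rdh10a at 53.4 and 16.8 against 437 and 816. Pigment epithelium genes moved with the libraries: rgrb in other barcodes was at 166 CPM in P23H V3 and 5806 in WT V3, and the part of free RNA in the members' rgrb was not tested.

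For the comparison of P23H with WT Müller glia, 4404 genes had at least 100 UMIs over both sets of members and are called measured. Of these, 354 were at least 2-fold higher in P23H V3 (8.04% of the genes) and 263 were at least 2-fold lower (5.97%), so that 57.4% of the genes past 2-fold were higher. Above equality lay 2364 of the 4404 genes (53.7%). TMM scaling, which moved the median log2 ratio to -0.05, gave 294 higher and 327 lower. On the main scaling there was a median log2 ratio of 0.05 over all measured genes and 0.16 for the same genes in the other barcodes. Of the 354 higher genes, 153 were also at least 2-fold higher in the other barcodes, and 96 were within 1.5-fold there. Of the 263 lower genes, 132 were also at least 2-fold lower in the other barcodes, and 76 were within 1.5-fold there. These overlaps were not set against the share of all measured genes past 2-fold in the other barcodes. When every member counted alike, without the 8% with most UMIs, and without the 8% with most UMIs on markers of other types, 212 of the 354 and 185 of the 263 were past 2-fold each time. These are called steady below. Lists of genes are given by how many measured members passed 2-fold, to be read against those percentages. Of the 110 named genes past 2-fold, 38 fell inside it under at least 1 alternative within the V3 pair.

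Glial identity genes outside the rule were mostly within 2-fold between the lines, with a median below equality. Of 22 measured, 0 were 2-fold higher and 3 were lower, with a median log2 ratio of -0.22 in members and 0.17 in other barcodes. Above equality lay 6 of the 22, against 53.7% of all measured genes. The median ran from -0.67 with P23H V2 to -0.11 over the alternatives. Glula differed by -0.09 (-0.12 to -0.06), slc1a2b by 0.12 and aqp1a.1 by 0.14. The gap junction gene cx43 was at 592 and 340.0 CPM, a log2 ratio of 0.80 in Müller glia and -1.80 in other barcodes. Fabp7a, a fatty acid binding protein of radial glia, was lower at 1497 CPM in P23H V3 and 3454 in WT V3, and vim, the vimentin gene, at 196 and 417. Both were within 2-fold when members counted alike (log2 -0.95 and -0.72). The third lower gene was rgrb. Apoeb was at log2 -0.83.

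Transmitter, ion and water transport genes had a median above equality. Of 22 measured genes 8 were 2-fold higher, 0 were lower and 15 were above equality, against 53.7% of all measured genes. The median log2 ratio was 0.67 in members and 0.27 in other barcodes, and 4 of the 8 were steady. The median was 0.41 without the 8% of members with most UMIs and 0.35 when members counted alike. Atp1b4 was at 1594 CPM in P23H V3 and 592 in WT V3, a log2 ratio of 1.43 (1.33 to 1.53), and at 3237 CPM in P23H V2. Aqp4 was at 248 and 108 CPM in the V3 libraries but at 109 in P23H V2, a log2 ratio of 0.02 to WT V3. In other barcodes the V3 log2 ratios of atp1b4 and aqp4 were 1.80 and 1.08. Slc12a2, the sodium, potassium and chloride cotransporter, was at 219.9 and 82.1 CPM, and its top member alone held 33.8% and 50.0% of the UMIs. Slc1a2a and slc6a9, a glutamate and a glycine transporter, were at log2 1.39 and 1.35, and at 0.49 and 0.87 without the 8% of members with most UMIs, and slc1a2a was at -0.48 when members counted alike. Slc6a9 is also an amacrine marker, and amacrine markers (19 genes) summed to 2685 CPM in P23H V3 members and 2138 in WT V3 members. The lowest ratios were those of the lactate carrier slc16a1a (-0.53), the sodium pump subunit atp1a1a.1 (-0.32) and the GABA transporter slc6a1b (-0.26). The potassium channel kcnj10a had 41 and 43 UMIs and was not measured.

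Retinoid genes differed in both directions. Of 24 measured genes 2 were 2-fold higher and 4 lower, with a median log2 ratio of 0.07, and 1 of the 4 was rlbp1a, which the rule used. Cyp26c1 was higher at 177 CPM in P23H V3 and 49.7 in WT V3, a log2 ratio of 1.83 (1.49 to 2.18), while cyp26a1, its more abundant paralogue, differed by 0.09. Crabp1a, a cytoplasmic retinoic acid carrier, was lower at 350.4 CPM in P23H V3 and 888 in WT V3, a log2 ratio of -1.34 (-1.49 to -1.19), and at 383 CPM in P23H V2. Crabp2b was at log2 0.63. The retinol dehydrogenase rdh10a was at 437 and 816 CPM and rdh10b at 56.2 and 29.5. Adh5 was at 44.3 and 89.8 CPM in the V3 libraries and 125 in P23H V2. The other gene past 2-fold higher, rbp4, had 86.0% of its P23H UMIs in 1 member and was at log2 -0.12 without the 8% of members with most UMIs.

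Notch signalling keeps Müller glia quiescent, and ascl1a and lin28a act early in their reprogramming. Of 10 measured Notch genes 0 were higher and 2 were lower, with a median log2 ratio of -0.49 in members and -0.56 in other barcodes. The median of the members was 0.15 with no limit on UMIs. Her12 was at 62.5 CPM in P23H V3 and 205 in WT V3, a log2 ratio of -1.72 (-2.08 to -1.37), and her4.3 at 7.91 and 57.5 CPM, though 1 member held 50.0% and 33.6% of the her4.3 UMIs. Lfng, which modifies Notch receptors, was at log2 -0.82, notch3 at -0.87, her15.1 at -0.81 and notch1b at -0.17. Among 27 measured reprogramming genes 2 were higher and 2 lower (median -0.20), and 1 of the higher and 0 of the lower were steady. Il6st, the shared receptor of interleukin 6 family cytokines, was higher at 89.4 CPM in P23H V3 and 25.1 in WT V3. The cytokine signalling inhibitor socs3b was lower at 271 and 596, and reached log2 -0.94 under an alternative within the V3 pair. Ascl1a and lin28a had too few UMIs to be measured, so they are not among the 27, and both were named after their values were seen. Ascl1a had 1 UMI in P23H V3 and 57 in WT V3. Its log2 ratio of -5.12 (-10.45 to -2.59) rests on that 1 UMI, and its size is therefore uncertain. Lin28a had 0 in both libraries. Mych was at log2 -0.95.

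Cell cycle genes gave little difference. Of 15 measured 1 was 2-fold higher and 0 were lower, with a median log2 ratio of 0.16 in members and 0.75 in other barcodes. The one was stmn1a at 62.5 CPM in P23H V3 and 11.1 in WT V3, a gene that was also higher in other barcodes (log2 3.08). Pcna, the replication clamp, was at 91.0 and 69.1 CPM, and hmgb2a at log2 0.81. Cdkn1a, a cell cycle inhibitor, was at log2 0.47 in members and -0.64 in other barcodes.

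Growth and nutrient signalling differed in single genes. Of 28 measured TOR genes 4 were higher and 1 was lower (median 0.29 in members, 0.17 in other barcodes), all 5 of them steady. Irs2a, an insulin receptor substrate, was at 259 CPM in P23H V3 and 13.5 in WT V3, and in other barcodes its log2 ratio was 6.05. Foxo1a, the transcription factor held back by insulin signalling, was at 341 CPM in P23H V3 and 71.5 in WT V3, a log2 ratio of 2.25 (1.98 to 2.53). Deptor, a TOR inhibitor, was at log2 1.55, and the stress-induced TOR inhibitor sesn1 at 1.06. Ddit4, another inhibitor of TOR, was lower at 42.7 CPM in P23H V3 and 266 in WT V3, a log2 ratio of -2.64 (-3.07 to -2.23), with -2.56 in other barcodes. The translation repressor eif4ebp3l was at -0.89. Its relative eif4ebp1 was at -0.53 with its rows summed (117 and 56 UMIs on the first row, 0 and 221 on the second) and at 1.77 with rows not summed. Sik2b was at log2 0.90.

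Of 31 measured genes of amino acid metabolism 4 were higher and 0 lower, with a median log2 ratio of 0.26. Above equality lay 21 of them, against 53.7% of all measured genes. Gpt2l, an alanine aminotransferase relative, was at 290.3 CPM in P23H V3 and 54.6 in WT V3, a log2 ratio of 2.41 (2.103 to 2.73), and at 179.8 CPM in P23H V2, but in other barcodes it was lower in P23H, at 14.8 against 83.6 CPM. Prodha, the first enzyme of proline breakdown, was at 140.005 CPM in P23H V3 and 46.4 in WT V3, a log2 ratio of 1.59 (1.23 to 1.97). Psat1 of serine synthesis was the lowest at log2 -0.93. Smox, the spermine oxidase, was not in a list and is named after its values were seen. It was at 2009 CPM in P23H V3, 1493 in P23H V2 and 295 in WT V3, a log2 ratio of 2.77 in V3 members and -0.87 in other barcodes.

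Sterol and lamellipodium genes showed no shared direction. Of 16 measured sterol genes 2 were higher and 2 lower, with a median log2 ratio of 0.06. Msmo1, a sterol demethylase, was at 574 CPM in P23H V3 and 162 in WT V3, and scap, a sterol-sensing protein, at log2 1.06. Hmgcra, the rate-limiting reductase, was lower at 33.2 and 81.6 CPM, and hsd17b7 at 29.3 and 84.0, though with P23H V2 hsd17b7 was at log2 -0.10. The UMIs of hmgcra were 21 and 147 on its first row and 21 and 22 on its second, so that its lower level in P23H lay on the first row alone. Hmgcs1 was at log2 -0.98 and cyp51 at -0.77 in members, and at 0.75 and 1.04 in other barcodes, and cyp51 was at 0.26 with P23H V2. Of 28 lamellipodium and actin genes 1 was higher and 0 lower (median -0.11). It was synpo, an actin-associated protein, at 242 CPM in P23H V3 and 5.80 in WT V3. Its log2 ratio was 5.38 in members and 8.62 in other barcodes, so the difference was seen there too. Capzb was at -0.62, auts2b at -0.34, add3a at -0.01 and snx5 at -0.05, and with P23H V2 capzb was at 0.42, auts2b at 0.58 and snx5 at 1.15.

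Of 24 measured heat shock genes 4 were higher and 1 lower, and of these hsp70.3 and hspa8 were steady. Hsp70.3, an inducible chaperone, was at 6309 CPM in P23H V3 and 2486 in WT V3 and at 2533 in P23H V2, and hspa8, the constitutive chaperone, was lower at 344 and 921 CPM. Hsp70.1 was at log2 0.71 and hsp70l at -0.30. Hsph1 and hspa4a, partners of the chaperones, were at 1.17 and 1.15 in the V3 pair and at -0.17 and -0.92 with P23H V2. Of 21 endoplasmic reticulum stress genes 0 were higher and 3 lower (median -0.22). Xbp1, a transcription factor of the unfolded protein response, was at 471 CPM in P23H V3 and 1068 in WT V3, a log2 ratio of -1.18 (-1.31 to -1.05), and pdia4 and pdia6, which form disulfide bonds, were at -1.47 and -1.11, and at -0.17 and -0.54 with members thinned to 1000 UMIs. Atf4a and ppp1r15a were at 0.67 and 0.83 in the V3 pair, and atf4a was at -1.25 with P23H V2. Of 31 immediate early genes 3 were higher and 3 lower, shares near the background. Among them junbb was at 4063 CPM in P23H V3 and 949 in WT V3, a log2 ratio of 2.099 (2.02 to 2.17), and at log2 1.82 in other barcodes. Egr4 was at 1.36, and egr2a and egr2b, of the same family, were at -1.25 and -1.33, the latter pair inside 2-fold without the 8% of members with most UMIs (-0.99 and -0.89). Of 28 antioxidant genes 2 were higher and 2 lower, also near the background, and 1 of the higher and 0 of the lower were steady. The leading one was mt2 at 1928 CPM in P23H V3 and 478 in WT V3, with a log2 ratio of 1.71 in other barcodes.

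Of 19 measured clock genes 5 were higher and 1 lower, with a median log2 ratio of 0.56 in members and 0.53 in other barcodes. Above equality lay 17 of them, against 53.7% of all measured genes. Cry-dash, a photolyase relative, was at 98.1 and 19.3 CPM, cry1ab at 86.2 and 28.0, and the light-induced per2 at 368 and 148. Per1b was at log2 1.31, tefa at 1.24 and bhlhe40 at 0.20. Of the 5 higher genes 4 were steady. Under alternatives within the V3 pair per2 reached log2 0.98 and tefa 0.76, both inside 2-fold, and per2 was at 0.62 with P23H V2. Nfil3-5 was the lower one, at 111 CPM in P23H V3 and 336 in WT V3. By the study both libraries were made at one time of day under the same light cycle.

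Spock2, an extracellular proteoglycan, was at 263 CPM in P23H V3 and 47.8 in WT V3, a log2 ratio of 2.46 (2.13 to 2.80), and at 0.34 in other barcodes. Icn, an S100 calcium-binding protein, was lower at 1488 CPM in P23H V3 and 4592 in WT V3, a log2 ratio of -1.63 (-1.70 to -1.55), while other barcodes had 163 and 63.8 CPM. Tjp2b and col2a1a, a junction and a collagen gene, were at log2 -1.33 and -1.14, and cdh11 at 1.16 (with P23H V2 -0.23). Under alternatives within the V3 pair tjp2b reached -0.98 and col2a1a -0.73, both inside 2-fold. Of 27 matrix and junction genes 2 were higher and 4 lower, and 2 of the higher and 2 of the lower were steady. Among 23 growth factor and receptor genes 3 were higher and 2 lower. Id1 at 2448 CPM in P23H V3 and 1186 in WT V3 and id3 at log2 1.101 are targets of BMP signalling, and insra, an insulin receptor, was at 1.001. Igfbp1a was lower at 1402 CPM in P23H V3 and 3433 in WT V3, and smad7, an inhibitor of TGF-beta signalling, at 83.8 and 255. Tgfb3 was at log2 -0.79. Of 38 energy genes 3 were higher and 2 lower, and 1 of the higher and 1 of the lower were steady. Idh3a of the citric acid cycle was at log2 1.46 and the glycolytic eno1a and pgk1 at -1.01 and -0.92. Eno1a reached -0.76 under an alternative within the V3 pair and was at 0.49 with P23H V2.

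A prostaglandin enzyme and 3 genes of antigen presentation and interferon response were lower in P23H Müller glia. Ptgs2b, a cyclooxygenase, was at 38.0 CPM (28.0 to 50.3) in P23H V3, 31.3 in P23H V2 and 805 (766 to 844) in WT V3, which is 21.2-fold lower in the V3 pair. In other barcodes it was at 7.90 and 5.78 CPM, and no WT member held more than 3.12% of its UMIs. Of 11 measured antigen and interferon genes 1 was higher and 3 lower, with a median log2 ratio of -0.66 in members and 0.14 in other barcodes. Isg15, a ubiquitin-like protein induced by interferon, was at 46.7 CPM in P23H V3 and 327 in WT V3, a log2 ratio of -2.81 (-3.22 to -2.42), stat1a, which carries the interferon signal, at 22.9 and 78.7, and tapbp.1, which loads peptides on MHC class I, at 18.2 and 60.9. B2m was at log2 0.39. The higher gene was cd74a, known from microglia and macrophages, and it was at -0.53 without the 8% of members with most UMIs. Of 21 lipid genes 1 was higher and 4, including ptgs2b and fabp7a, were lower. The 1 higher gene was not steady, and 3 of the 4 lower were.

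**Figure D3:**
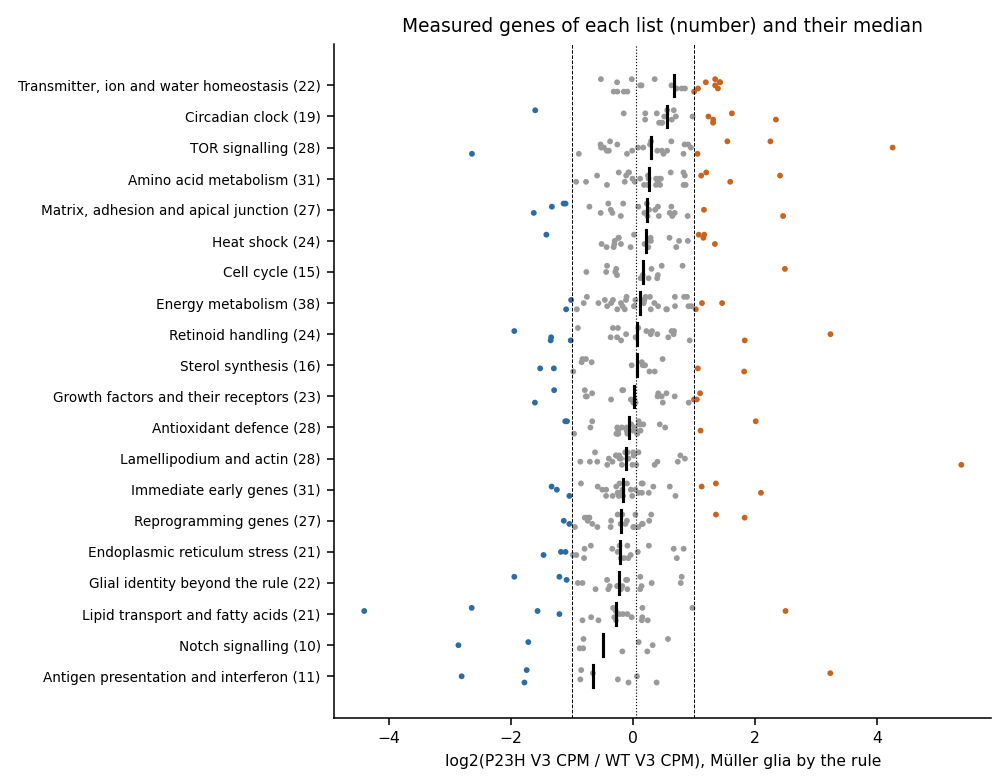
Log2 ratio of P23H V3 to WT V3 members for every measured gene with UMIs in both libraries, by list (number of measured genes), with the list median (black bar), the median of all measured genes (dotted, 0.05) and 2-fold limits (dashed). Transport and clock genes lie furthest right at medians of 0.67 and 0.56, and antigen and interferon genes furthest left at -0.66.

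Some of the largest differences were also seen in the other barcodes and others mainly in Müller glia. The other barcodes are a mix of cell types that was not alike in the libraries. Pigment-side barcodes held 280902 UMIs in P23H V3 and 7341409 in WT V3, and the part of this mix in the ratios of other barcodes was not tested. Among the 12 genes with the highest ratios, scg5 had 500 UMIs in P23H V3 members and 0 in WT V3, at least 273-fold higher against a floor of 3 counts in the WT library's members, and abca12 had 102 and 0, at least 55.7-fold. Hmx4 (219.9 and 0.483 CPM), bbip1 (225 and 0.966) and abi3bpb (214 and 0.966) rested on 1, 2 and 2 WT UMIs, with log2 ratios of 8.83 (6.34 to 14.14), 7.87 (6.0003 to 10.92) and 7.79 (5.92 to 10.84). They were also far apart in other barcodes, at log2 8.89, 7.17 and 6.16. Abi3bpb had 11 and 2 UMIs on its first row and 259 and 0 on its second, and reached log2 3.17 under an alternative within the V3 pair. Clec11a, a secreted growth factor, was at 91.8 and 0.966 CPM in Müller glia with 2 WT UMIs, a log2 ratio of 6.57 (4.68 to 9.63) and 1.62 in other barcodes, and slc27a2b, which activates long fatty acids, was at 86.2 and 1.93 with 0.77. Among the 12 lowest, flna, ctsd and ctsba, which encode a filamin and lysosomal proteases, were at log2 -5.99 (-9.04 to -4.12), -4.59 and -4.02 and were lower in other barcodes too (log2 -5.72, -6.94 and -4.46), as was sdr16c5b, at 34.8 and 563 CPM (-4.51 in other barcodes). Ctsd was at log2 -1.41 under an alternative within the V3 pair. Cldn7a had 0 UMIs in P23H V3 and 113 in WT V3, at least 23-fold lower. Rnf213a and ponzr5 were at log2 -3.49 and -3.71.

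**Figure D4:**
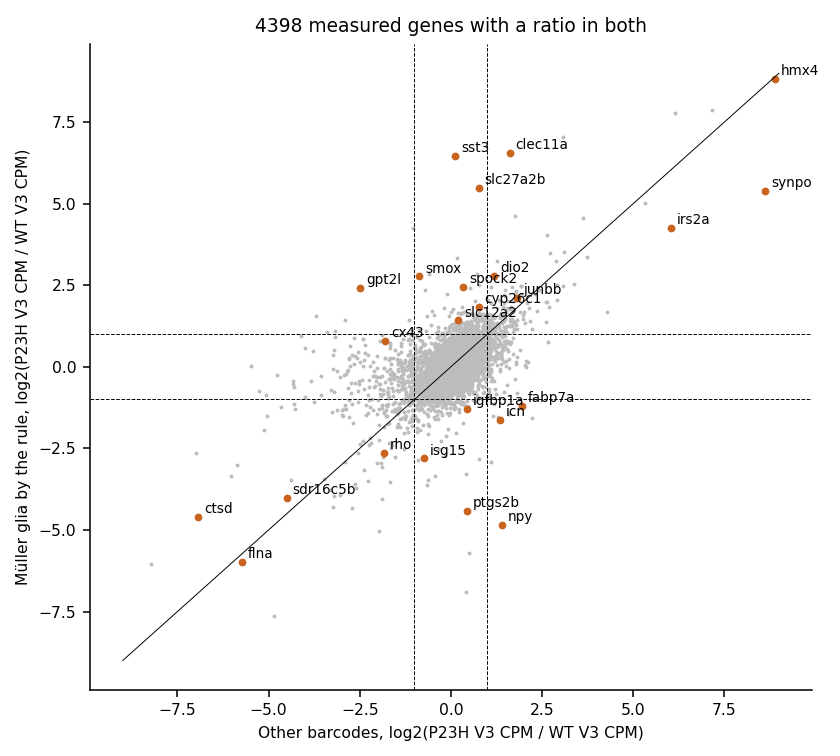
Log2 ratio of P23H V3 to WT V3 in all other barcodes (x) and in Müller glia (y) for 4398 measured genes with UMIs in every group, with equality (solid) and 2-fold limits (dashed). Ptgs2b, dio2, smox and slc27a2b lie away from the diagonal, while hmx4, flna and sdr16c5b lie near it. Dio2 was also past 2-fold higher in the other barcodes (1.18).

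Genes of other cell types were also among the extremes, and some rested on few members. Sst3, a somatostatin gene of amacrine cells, had 49.3% of its P23H UMIs in 1 member, tac1 had 100.0%, and npy and pyya had 54.4% and 71.4% of their WT UMIs in 1 member. Hbba2 of erythroid cells was at 322 and 2.41 CPM, with 34.9% of the P23H UMIs in 1 member. The 18 rod markers summed to 2087 CPM in P23H V3 members and 7663 in WT V3, with rho at 831 and 5163 CPM, against 8519 and 25347 CPM in other barcodes, and 3 of them were at 0 in each library. The 20 cone markers summed to 13260 and 8868 CPM, and the 16 bipolar markers to 6662 and 3620. Markers of microglia and macrophages without apoeb summed to 558 and 329 CPM and those of progenitors (21 genes) to 2823 and 3634. As an alternative, the profile of all barcodes was subtracted from the members, with background fractions of 0.187 in P23H V3 and 0.301 in WT V3. This left 3548 measured genes, with 379 at least 2-fold higher in P23H V3 and 248 at least 2-fold lower. Of these, 250 higher and 174 lower genes were also past 2-fold without the subtraction. The part of each of these cell types, or of its free RNA alone, in the gene differences was not tested.

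For 334 measured genes at least 10 UMIs fell on each of several rows with the same symbol, which were summed here, and for 122 of them the leading row was not the same in the libraries. The hyal6 row had 262 UMIs in P23H V3 and 0 in WT V3, and a second row named hyal6_1 had 20 and 530, so that the gene summed to log2 -0.20. For rdh10a these were 57 and 1145 on the first row and 495 and 545 on the second. For mt2 they were 382 and 706 on the first and 2055 and 283 on the second, so that the higher level in P23H lay on the second row alone. For tefa they were 334 and 6, and 82 and 283. For st8sia6 they were 461 and 163 on the first and 43 and 210 on the second, so that its higher level in P23H lay on the first row alone. Whether such rows are copies of a gene or versions of it was not tested.

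Müller glia varied widely among themselves. To compare members, each was thinned to 1000 UMIs, which left 230 members in P23H V3 and 327 in WT V3 and dropped 26 and 34 that were shallower. Variance over mean, which is 1 for pure counting, was highest for rho (39.1 and 70.7), LOC557301, LOC110437775, rbp4l, apoeb, pde6h, mt-rnr2 and cabp5a, of which all but apoeb were at a lower level than in the other barcodes. Among genes at 10 times or more the other barcodes, apoeb was the most uneven (13.7 and 17.05), with a median of 6 UMIs and a 90th percentile of 28 in P23H V3, and 11 and 44.4 in WT V3. Ptgdsb.1 followed (9.36 and 8.70), then ptgdsb.2 (7.10 and 8.79), zgc:153704, id1 (7.36 and 4.81), cyp26a1 (6.13 and 4.67), igfbp1a, glula, zgc:195173, sepp1a and cebpb. Cyp26a1 had a median of 0 UMIs in both libraries and reached 18 and 13, and id1 had a median of 2 in P23H V3 and 0 in WT V3. Glula was more even for its level, with medians of 13 and 14 and quartiles of 7 to 20 and 8 to 19.

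**Figure D5:**
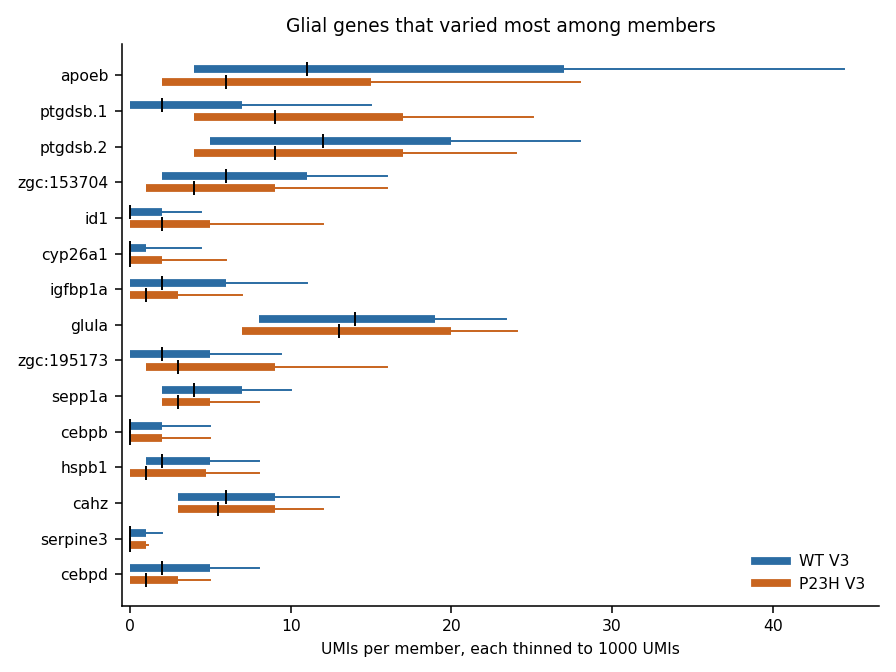
UMIs per member after thinning to 1000, for the 15 glial genes with the highest variance over mean in both libraries. Bars run from the lower to the upper quartile, thin lines on to the 90th percentile, and ticks are medians, with apoeb the widest.

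Several genes ran together from member to member in both libraries. Of 325 pairs tried, Spearman's rho was 0.64 in P23H V3 and 0.64 in WT V3 for hsp70.1 and hsp70l, 0.69 and 0.55 for hsp70.1 and hsp70.3, and 0.57 and 0.63 for the immediate early genes fosab and jdp2b. It was 0.55 and 0.55 for fosab and jun and 0.56 and 0.55 for socs3a and jdp2b. Among glial genes it was 0.62 and 0.54 for ptgdsb.1 and ptgdsb.2, 0.69 and 0.54 for zgc:153704 and zgc:195173, 0.53 and 0.51 for glula and cahz, and 0.47 and 0.48 for apoeb and igfbp1a. These values cover 230 and 327 members that share a library, a depth of 1000 UMIs and, for the selecting genes, the rule, and they are given as a description.

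The P23H V2 library gave 130 members of 4667 barcodes, with a median of 736 UMIs each and 127904 in all. Glial transcripts were also found outside the members there: the 4 selecting markers stood at 7367 CPM in the other barcodes of P23H V2, against 379 in P23H V3 and 295 in WT V3, and 72 of the 130 members had exactly 3 rlbp1a UMIs. Its values are therefore only set beside the V3 values, and both use the same WT library. Of the 354 higher genes 183 were at least 2-fold higher in P23H V2 members than in WT V3, and 21 at least 2-fold lower. Of the 263 lower genes 182 were at least 2-fold lower and 1 at least 2-fold higher. A gene without UMIs in P23H V2 counts as lower here. For comparison, 3163 genes had at least 100 UMIs over the P23H V2 and WT V3 members. Of these, 13.5% were at least 2-fold higher in P23H V2 and 20.8% at least 2-fold lower. Among single genes, dio2, smox, synpo, gpt2l, spock2 and junbb were at log2 1.97, 2.34, 6.498, 1.72, 2.52 and 2.32 against WT V3. Ptgs2b, icn, crabp1a, her12 and xbp1 were at -4.69, -2.09, -1.21, -3.71 and -1.97. Glula was at 1.51, where the V3 value was -0.09. In P23H V2 members 1 UMI was 7.82 CPM and the floor of 3 counts was 23.5 CPM. Her12 lay under that floor and ptgs2b not far above it, so both of these ratios rest on few UMIs.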

How the data were processed

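Whole retinas of 3 pooled fish per library were dissociated with papain and run on the 10x platform. The authors aligned reads to GRCz11 with Cell Ranger (3.1.2.0 by the submitters' processing notes, which also name FastQC 0.11.9, Seurat 3.1.1 and R 3.6.1) and deposited whole UMI counts for each gene in each barcode, not normalized. The age given is that of the labels, and the study's methods state another range.

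Rows of a symbol and its numbered copies were summed (47048 rows to 30579 symbols), members were taken by the rule, and their UMIs summed per library. Levels are CPM of the sum with exact Poisson intervals, ratios have exact conditional binomial intervals, and shares Clopper-Pearson intervals, all at 95% and for counting error only. With 1 library per group no test was made, and 2-fold was the rule of size. Library totals were 31429971 UMIs (P23H V3), 32916412 (WT V3) and 3220964 (P23H V2). The members and lists were chosen with earlier results of these data known. Named genes were the rule genes, genes the study names for these cells, up to 3 highest and 3 lowest of each list, the 12 highest and 12 lowest ratios with 100 UMIs in the higher library, and the 15 highest over other barcodes. Glula, glulb, slc1a2b, aqp1a.1, sox2 and her6 are named as markers of these cells. Smox, rlbp1b, sox9a, lfng, ascl1a, lin28a, pcna, hsp70.1, hsp70l, kcnj10a, per1b, tefa and the 17 glial genes past 2-fold, together with genes of the spread and of the pairs, were chosen after their values were seen. No doublet caller was run. The calculation was tested on simulated data. Alternatives were other limits on members, TMM scaling (edgeR 4.0.16), other totals, filters and weights, subtraction of a background profile, and P23H V2. The tools were R 4.3.3 and Python 3.11.15 with matplotlib 3.10.9, pandas 2.3.3, scipy 1.17.1 and numpy 2.4.6. Some genes that this rule names are not reported here. No promoter motif was searched and no sequence was used.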

Additional observations from a re-analysis of the deposited data

Results flagged for a closer look

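For 5 named genes the members and the other barcodes of the same libraries differed 2-fold or more in opposite directions between P23H V3 and WT V3. The difference between the directions was not tested, since each line has 1 library. The mix of cell types in the other barcodes also differed between the libraries, and its part was not tested. Gpt2l was higher in P23H Müller glia (log2 2.41) and lower in other barcodes (-2.49). Fabp7a was lower in Müller glia (-1.21, and -0.95 when members counted alike) and higher elsewhere (1.95, 916 against 237 CPM). Icn was lower in Müller glia (-1.63) and higher elsewhere (1.35). Hsd17b7, an enzyme of sterol synthesis, was at -1.52 in Müller glia and 1.15 elsewhere, and at -0.10 in Müller glia with P23H V2. Npy was at -4.85 in Müller glia and 1.41 elsewhere, with 54.4% of its WT UMIs in 1 member.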

How the results depend on the processing

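No paired analysis was possible because each group has 1 library. The number of genes at least 2-fold higher in P23H V3 was 354 and moved to 205 under the study's limits on genes and mitochondrial UMIs and to 216 without the 8% of members with most UMIs, while the number lower, 263, moved to 659 with P23H V2 in place of P23H V3. Thinning members to 1000 UMIs gave 47 higher and 60 lower of 850 measured genes. A limit of 20 UMIs gave 1007 and 956, no limit 3839 and 4073, and a 1.5-fold rule of size 837 and 660. With TMM scaling 294 were higher and 327 lower. The share of members in P23H V3 moved from 1.65% to 2.01% with 500 genes per barcode, to 1.38% with 5 rlbp1a UMIs and to 1.24% with every barcode thinned, and in WT V3 from 2.59% to 3.38% with 500 genes and 3.23% when thinned. Of 110 named genes past 2-fold 13 turned direction under an alternative. These values were those of slc1a2a (-0.33 under the study's limits, -0.48 with members alike, -2.28 without the 8% with most UMIs on markers of other types), rbp4 (-3.40 under the study's limits and -0.12 without the 8% with most UMIs), cd74a (-0.42 and -0.53 in the same order, and -0.52 without those rich in other markers) and fabp11a (-1.004, -1.82 and -1.11 in that order, and -0.49 thinned). Insm1a was at -0.077 with members thinned. Under P23H V2 boka was at 0.29, adh5 at 0.48, hsph1 at -0.17, hspa4a at -0.92, eno1a at 0.49, cdh11 at -0.23 and sst3 at -0.071. With rows not summed mt2 was at -0.17. Of 60 named genes under 2-fold 31 turned direction, 19 of them within the V3 pair, and of 21 lists the median of 13 turned. The causes were not tested. Leaving out for each gene its top member, the limit of 1 rlbp1a UMI and the removal of members rich in other markers were chosen after seeing the data. Dio2, smox and ptgs2b kept their direction and stayed past 2-fold under every alternative that gave them a value.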
